A study of Rattus norvegicus with 8 samples.

Results

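Solute carriers, membrane proteins that move amino acids, ions, sugars, nucleotides and vitamins across cell and organelle membranes, were examined in the rat insulinoma line INS-1, whose cells secrete insulin. Members were chosen by symbol, as every listed gene whose name starts with Slc and a digit, without Slc2a1 and Slc16a1. This gave 47 of the 1586 genes listed in all, with 38 in a glucose table of 1344 genes, 16 in an A-CREB table of 566 genes and 7 in both. RNA was sequenced from 8 libraries, 1 per group. In the glucose table, cells spent 3 days in 2.8 mM (low) or 20 mM (high) glucose, followed by 2 h with 10 uM forskolin or with DMSO, the vehicle. In the A-CREB table, cells grown in 11 mM glucose had no virus or carried, for 2 days, an adenovirus that encodes A-CREB, a dominant-negative protein that blocks the transcription factor CREB, before the same forskolin or DMSO treatment. Forskolin raises cAMP. The control cells had no virus, so infection and A-CREB cannot be told apart, and with 1 library per group no difference was tested and none has a replicate check.

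Solute carriers are grouped into families by sequence, and the family number often points to the kind of cargo. Slc7 light chains form amino acid exchangers with the heavy chain Slc3a2, and Slc25 proteins sit in the inner mitochondrial membrane. Slc35 proteins bring nucleotide sugars into the Golgi and endoplasmic reticulum, and Slc18a1 and Slc18a2 load monoamines into secretory vesicles. In beta cells, carriers bring in the fuels and amino acids that support insulin synthesis and release. By SLC family, the 38 glucose-table members were 12 amino acid carriers, 7 ion carriers, 6 mitochondrial carriers, 3 nucleotide sugar carriers, 1 each for metal, sugar, monocarboxylate and vesicular transport, and 5 of other families. The remaining 1, Slc9a3r1, met the symbol rule but encodes NHERF1, a scaffold protein that binds a sodium/proton exchanger and is not itself a carrier.

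The promoter windows of members were set beside the cAMP response element, the DNA motif that CREB binds, since the libraries compare cAMP responses. RefSeq windows of 300 bases (250 before and 50 after a transcript start, assembly GRCr8) matched 35 of the 47 members. The full element TGACGTCA was present in 3 of these 35 genes (8.57%), against 2.00% of 27457 genes with a window, 6.69% of the glucose-table genes and 7.23% of the A-CREB-table genes. Its core TGACG, which also lies inside the full element, was found in 17 of the 35 (48.6%), against 23.04%, 40.9% and 37.3%. The E-box CACGTG was found in 7 (20.0%), against 7.08%, 11.1% and 9.56%. Both strands were searched, and motifs can overlap. The 3 windows with the full element are printed to show where it lies, and that of Slc26a2 because this member had the lowest A-CREB change among the better expressed ones and no core in its window. They lie at chr3:36116532-36116831 (minus strand), chr1:268399771-268400070 (plus strand), chr5:165502924-165503223 (minus strand) and chr18:56936963-56937262 (minus strand). Capitals mark the full element, other cores and E-boxes, and each sequence reads along the gene.
Slc25a25: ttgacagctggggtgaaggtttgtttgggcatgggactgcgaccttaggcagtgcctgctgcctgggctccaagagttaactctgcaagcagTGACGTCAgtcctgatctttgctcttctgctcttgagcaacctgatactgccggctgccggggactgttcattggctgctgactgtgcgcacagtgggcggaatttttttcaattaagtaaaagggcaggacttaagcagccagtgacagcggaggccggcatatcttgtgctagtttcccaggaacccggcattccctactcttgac
Slc18a2: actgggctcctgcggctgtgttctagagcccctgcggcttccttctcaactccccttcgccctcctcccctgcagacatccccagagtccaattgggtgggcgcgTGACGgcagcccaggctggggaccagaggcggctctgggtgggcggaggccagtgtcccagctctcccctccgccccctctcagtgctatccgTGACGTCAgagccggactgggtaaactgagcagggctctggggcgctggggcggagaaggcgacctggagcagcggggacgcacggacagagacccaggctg
Slc25a33: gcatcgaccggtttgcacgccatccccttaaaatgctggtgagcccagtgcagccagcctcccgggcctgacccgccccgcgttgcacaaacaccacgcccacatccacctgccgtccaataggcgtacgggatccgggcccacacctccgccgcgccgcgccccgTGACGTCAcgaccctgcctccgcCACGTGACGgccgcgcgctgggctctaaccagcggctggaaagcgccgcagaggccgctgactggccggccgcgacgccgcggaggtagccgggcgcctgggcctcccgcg
Slc26a2: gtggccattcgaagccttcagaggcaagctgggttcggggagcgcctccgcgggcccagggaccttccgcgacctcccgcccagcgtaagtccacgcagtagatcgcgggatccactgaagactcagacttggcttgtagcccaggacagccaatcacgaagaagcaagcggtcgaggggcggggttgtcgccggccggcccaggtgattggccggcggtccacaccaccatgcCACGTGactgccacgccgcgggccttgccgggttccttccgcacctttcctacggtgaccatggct
The full element began 158 bases before the start in Slc25a25, 52 bases before it in Slc18a2 and 84 bases before it in Slc25a33. The window of Slc26a2 held an E-box 16 bases before the start. A match is a description of the letters and not of a bound site.

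Levels are FPKM (a fragment number per length of transcript and size of library), so they can be compared between genes of a table. The authors' tables hold genes with a forskolin value over 2 times that in DMSO at 2.8 mM glucose or without virus, and every member was listed for this reason. Reference folds are therefore given as a description. A lower fold in the second condition cannot be told apart from an effect of this listing. Folds are ratios of FPKM + 0.1, and a change is the log2 fold in the second condition (20 mM, or A-CREB) minus that in the reference. Paired values are DMSO first and forskolin second. In bulk samples such as these, fewer cells of a kind and less RNA per cell cannot be told apart. Among the cell line's own markers fixed for a check, MafA was listed in both tables and Pdx1 in the A-CREB table, and none of 13 markers of other pancreatic, stromal or blood cells was listed. The tables hold only forskolin-induced genes, so listing says nothing of cell content. MafA, a beta-cell transcription factor, was at 149 and 639 FPKM in low glucose, against 14.6 and 77.3 FPKM in high glucose. In the A-CREB table it was at 54.2 and 474 FPKM in virus-free cells, against 24.5 and 90.2 FPKM in A-CREB cells, and Pdx1 was at 69.8 and 146 FPKM, against 50.7 and 108 FPKM. The part of these marker differences in the members' values was not tested. The sources used here give no read totals. From the spacing of low values, depth relative to the reference DMSO library was 0.742 to 1.22 in the glucose table and 0.906 to 1.35 in the A-CREB table.

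The glucose table addressed how the forskolin response of these genes differed after 3 days at high glucose. Slc25a25, the ATP-Mg/phosphate carrier of mitochondria, and Slc26a2, a sulfate transporter, had the highest folds at 20 mM among the members. The neutral amino acid carrier genes Slc7a5 and Slc7a8 were also above 4-fold there, as was the weakly expressed Slc7a11 (4.28-fold). Over all members, 17 of 38 reached 2-fold at 20 mM, beside 37.2% of the whole table, and 33 reached it at 2.8 mM, beside 88.7%. A smaller fold at 20 mM was found in 34 of 38 (91.2% of the table), smaller by more than 1.5 times in 24 (65.6% of the table), and a larger fold in 4 (8.78% of the table). The median log2 fold was 1.42 at 2.8 mM and 0.68 at 20 mM, and the median change was -0.73, against -0.81 over all 1344 genes. Forskolin was at or above DMSO at 20 mM in 35 members (87.1% of the table), and 2 were listed at 0 in a library (5.58%). These shares are near those of the table. With a mean of at least 5 FPKM, which 22 members had (65.2% of the table), 13 reached 2-fold at 20 mM, against 42.1%.

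**Figure D1:**
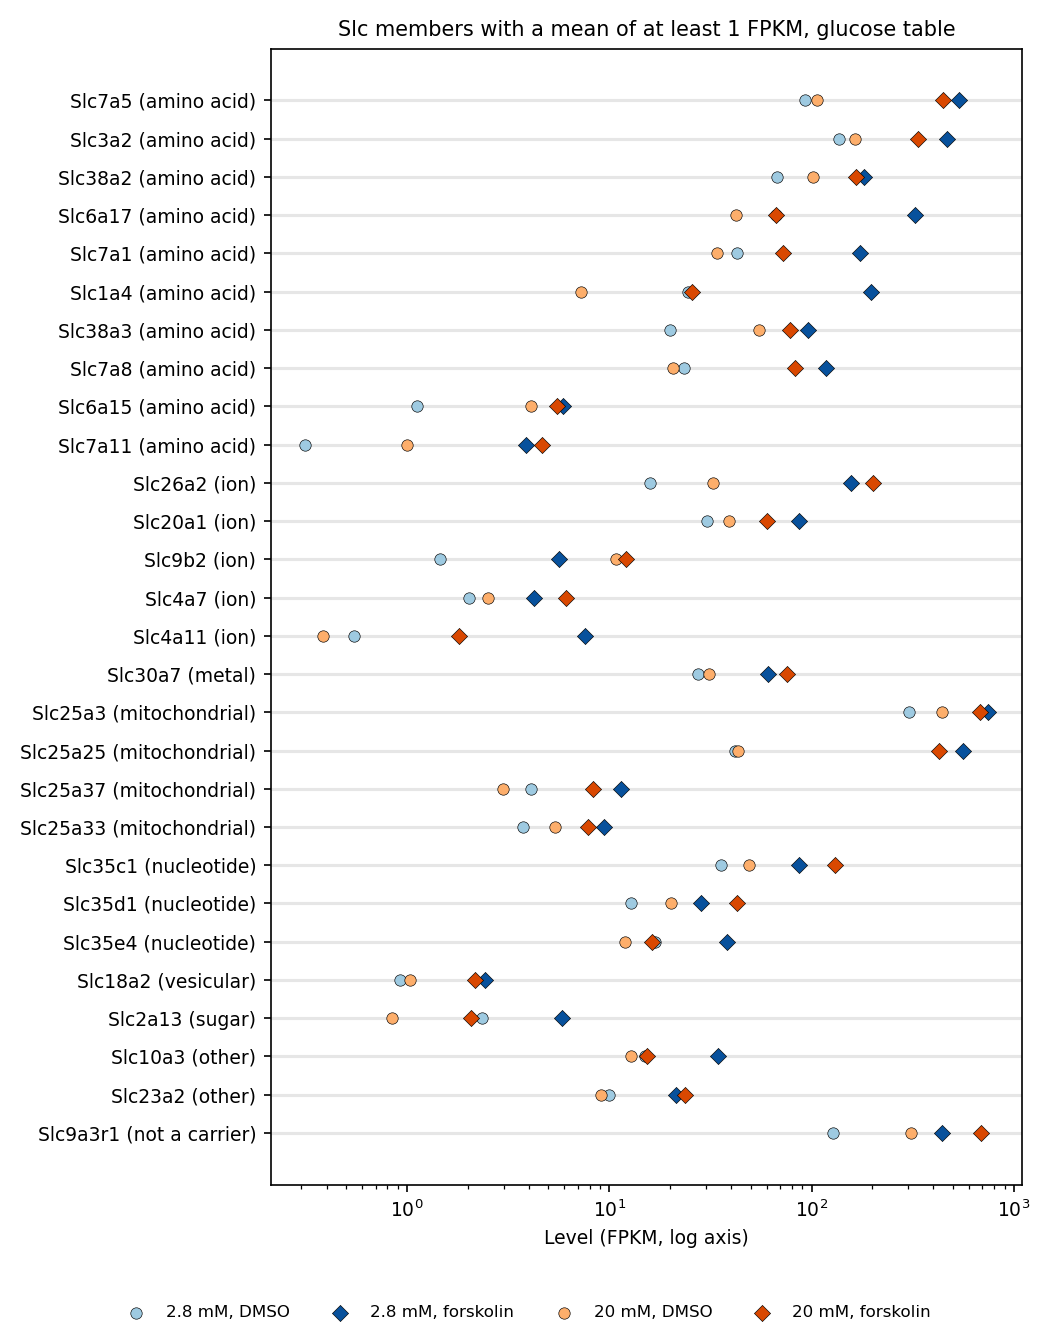
Levels of the 28 glucose-table members with a mean of at least 1 FPKM in each of the 4 libraries (log axis, FPKM), with circles for DMSO, diamonds for forskolin, blue for 2.8 mM and orange for 20 mM. Forskolin lies to the right of DMSO in both conditions for every gene shown, and the gap at 20 mM is narrow for Slc9b2 (10.8 and 12.1 FPKM) and wide for Slc25a25 (43.2 and 429 FPKM).

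The amino acid carriers were the largest group, with a lower fold at 20 mM in all 12 (91.2% of the table) and a fold of at least 2 there in 6 (37.2% of the table). Slc7a5, the light chain of the exchanger for leucine and other large neutral amino acids, had 93.4 FPKM in DMSO and 536 FPKM under forskolin in low glucose, against 106 and 445 FPKM in high glucose. Slc3a2, the heavy chain that carries Slc7a5 and related light chains to the membrane, was at 137 and 465 FPKM in low glucose, against 164 and 335 FPKM in high glucose. In both genes the DMSO levels were close and the forskolin level was lower at 20 mM. Their folds were 5.73 and 4.18 for Slc7a5, and 3.40 and 2.04 for Slc3a2. Slc7a8, another light chain for neutral amino acids, was at 23.5 and 118 FPKM in low glucose, against 20.6 and 82.9 FPKM in high glucose (5.02-fold, then 4.02-fold). Slc7a11, the light chain of the cystine/glutamate exchanger, was weakly expressed, at 0.313 and 3.88 FPKM in low glucose, against 1.00 and 4.62 FPKM in high glucose. Its forskolin levels were close at both glucose levels while its DMSO level was higher at 20 mM.

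Slc1a4, Slc6a17 and Slc7a1 had much lower forskolin levels at 20 mM. Slc1a4, a carrier of alanine, serine and cysteine, had 24.6 FPKM in DMSO and 198 FPKM under forskolin in low glucose, against 7.28 and 25.5 FPKM in high glucose. The 20 mM forskolin level was thus close to the 2.8 mM DMSO level, although the fold was still 3.47 (8.02 at 2.8 mM). Slc6a17, a neutral amino acid transporter of synaptic vesicles, was at 66.9 and 326 FPKM in low glucose, against 42.4 and 66.5 FPKM in high glucose (4.87-fold, then 1.57-fold). Slc7a1, the main carrier of arginine and other cationic amino acids, was at 42.9 and 173 FPKM in low glucose, against 34.2 and 72.0 FPKM in high glucose (4.03-fold, then 2.10-fold). The ratio of 20 mM over 2.8 mM in forskolin was 0.130 for Slc1a4, 0.204 for Slc6a17 and 0.416 for Slc7a1.

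Slc38a3 and Slc38a2, sodium-coupled carriers of glutamine and other neutral amino acids, and Slc6a15 had a higher DMSO level at 20 mM. Slc38a3 was at 19.9 and 96.2 FPKM in low glucose, against 55.2 and 78.1 FPKM in high glucose, so that its fold was 4.82 and then 1.41. Slc38a2 was at 67.3 and 183 FPKM in low glucose, against 102 and 167 FPKM in high glucose (2.71-fold, then 1.64-fold). Slc6a15, a branched-chain amino acid carrier best known from brain, was at 1.13 and 5.91 FPKM in low glucose, against 4.09 and 5.54 FPKM in high glucose. For all 3, the forskolin levels at the 2 glucose concentrations were closer than the DMSO levels. Slc38a5, of the Slc38 family too, had a lower DMSO level at 20 mM and was at 0.695 and 2.62 FPKM in low glucose, against 0.114 and 0.112 FPKM in high glucose, where forskolin and DMSO hardly differed. Slc7a7, a light chain that exports cationic amino acids, was below 0.15 FPKM in every library.

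Among ion carriers, 3 of 7 reached 2-fold at 20 mM, near the 37.2% of the table. Slc26a2 had 15.9 FPKM in DMSO and 156 FPKM under forskolin in low glucose, against 32.5 and 200.4 FPKM in high glucose. Both 20 mM levels were higher than their 2.8 mM counterparts, and the folds were 9.78 and 6.16. Slc9b2, a sodium/proton exchanger, was at 1.45 and 5.64 FPKM in low glucose, against 10.8 and 12.1 FPKM in high glucose. Its DMSO level was 7.02-fold higher at 20 mM, and its folds were 3.71 and 1.12. Slc20a1, a sodium-coupled phosphate importer, was at 30.5 and 86.5 FPKM in low glucose, against 39 and 60.3 FPKM in high glucose. Slc4a7, a sodium bicarbonate cotransporter, was at 2.02 and 4.22 FPKM in low glucose, against 2.51 and 6.08 FPKM in high glucose (2.04-fold, then 2.36-fold). Slc4a11, another member of the bicarbonate carrier family, was at 0.547 and 7.60 FPKM in low glucose, against 0.385 and 1.80 FPKM in high glucose. Both of its levels were lower at 20 mM, with a ratio of 20 mM over 2.8 mM of 0.749 in DMSO and 0.247 in forskolin. The only metal carrier listed, Slc30a7, which brings zinc into the Golgi, was at 27.6 and 60.8 FPKM and at 31.3 and 75.8 FPKM (2.20-fold, then 2.42-fold).

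The mitochondrial carriers included the most abundant member and the one with the highest folds. Slc25a25, whose window holds the full element, had 41.9 FPKM in DMSO and 561 FPKM under forskolin in low glucose, against 43.2 and 429 FPKM in high glucose. The DMSO levels were nearly equal, and the folds were 13.4 and 9.91. Slc25a3, which imports phosphate for ATP synthesis, had the highest mean of any member, with 303 and 744 FPKM at 2.8 mM and 442 and 679 FPKM at 20 mM, and folds of 2.46 and 1.54. Slc25a37, the iron importer mitoferrin, was at 4.11 and 11.5 FPKM in low glucose, against 2.98 and 8.31 FPKM in high glucose (2.75-fold, then 2.73-fold). Slc25a33, a pyrimidine nucleotide carrier that also has the full element, was at 3.74 and 9.42 FPKM in low glucose, against 5.38 and 7.88 FPKM in high glucose. Its folds were 2.48 and 1.46, so of these 2 genes with the full element only Slc25a25 was above 2-fold at 20 mM.

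The nucleotide sugar carriers of the Golgi and endoplasmic reticulum differed among themselves. Slc35c1, which imports GDP-fucose, was at 35.8 and 86.3 FPKM in low glucose, against 49.1 and 130.0 FPKM in high glucose. Slc35d1, a carrier of UDP-linked sugars, was at 12.9 and 28.3 FPKM in low glucose, against 20.3 and 42.8 FPKM in high glucose. In both, the DMSO and the forskolin level were higher at 20 mM and the folds were close, at 2.41 and 2.64 for Slc35c1 and at 2.19 and 2.11 for Slc35d1. Slc35e4, whose cargo is not named here, was at 16.7 and 38.2 FPKM in low glucose, against 11.97 and 16.3 FPKM in high glucose (2.28-fold, then 1.35-fold).

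**Figure D2:**
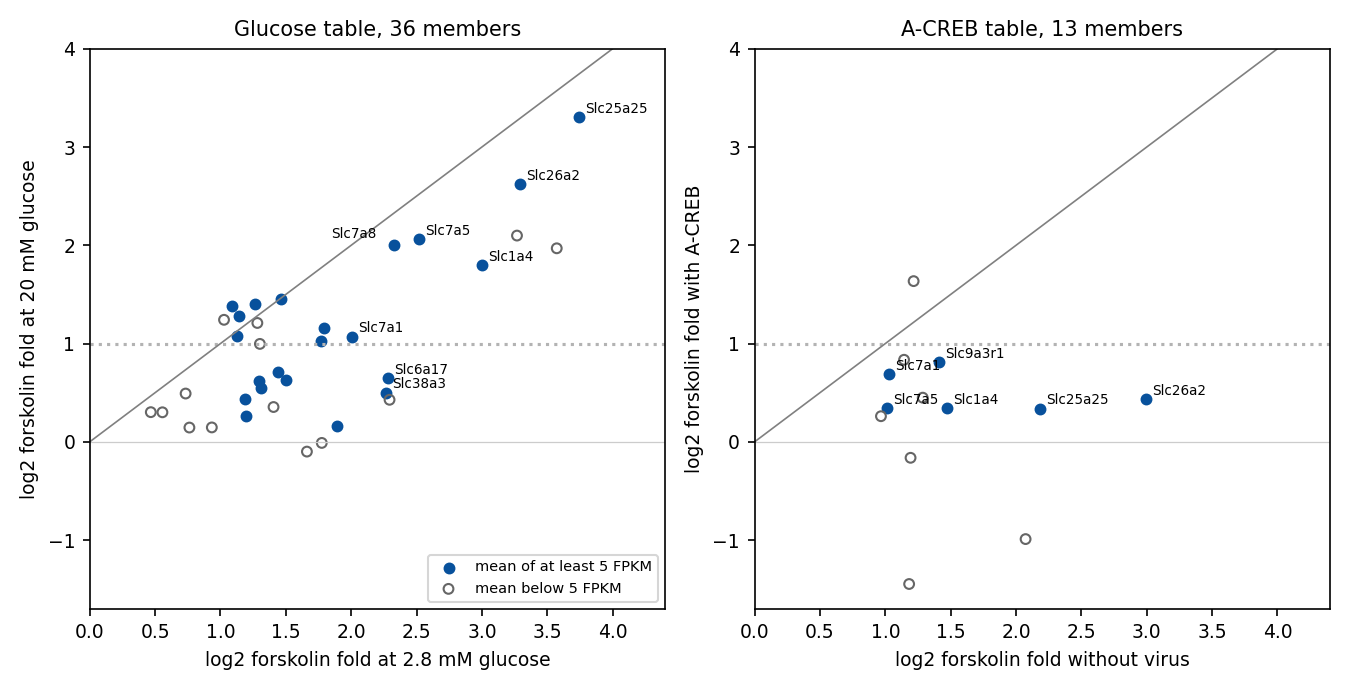
Log2 forskolin fold in the second condition (y axis) against the reference condition (x axis) for the 36 glucose-table and 13 A-CREB-table members with no library at 0, filled where the mean was at least 5 FPKM, with the line of equal folds and a dotted line at 2-fold. Slc25a25 is at 3.74 and 3.31 in the glucose table and at 2.18 and 0.34 in the A-CREB table, and no filled point of the A-CREB table reaches the dotted line.

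Of the remaining carriers, Slc18a2, which loads monoamines into secretory vesicles, was at 0.924 and 2.42 FPKM in low glucose, against 1.04 and 2.17 FPKM in high glucose (2.46-fold, then 1.99-fold). Slc2a13, a proton-coupled inositol carrier, was at 2.34 and 5.84 FPKM in low glucose, against 0.841 and 2.08 FPKM in high glucose, lower at 20 mM in both treatments (2.43-fold, then 2.31-fold). The vitamin C carrier gene Slc23a2 was at 9.96 and 21.3 FPKM in low glucose, against 9.06 and 23.8 FPKM in high glucose (2.13-fold, then 2.61-fold). Slc10a3, of the bile acid carrier family, was at 14.98 and 34.4 FPKM in low glucose, against 12.8 and 15.4 FPKM in high glucose (2.29-fold, then 1.20-fold). The scaffold gene Slc9a3r1 was at 128 and 443 FPKM in low glucose, against 311 and 692 FPKM in high glucose, higher at 20 mM in both treatments (3.47-fold, then 2.23-fold). The 4 members with a higher fold at 20 mM were Slc4a7, Slc30a7, Slc35c1 and Slc23a2, with changes from 0.13 to 0.29, and none was higher by more than 1.5 times (2.08% of the table).

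The lower folds were made up in different ways. Of the 22 members with a mean of at least 5 FPKM, 14 were induced less at 20 mM, past the mark of 1.5 times (65.0% of the 876 table genes at such a mean). In 5 of these 14 the DMSO level was higher by more than 1.5 times at 20 mM and the forskolin level was not lower by that much: Slc26a2, Slc38a3, Slc9b2, Slc9a3r1 and Slc38a2. In 5 others the forskolin level was lower by more than 1.5 times and the DMSO level was not higher by that much: Slc1a4, Slc6a17, Slc7a1, Slc10a3 and Slc35e4. The last 4, Slc3a2, Slc20a1, Slc25a33 and Slc25a3, passed neither mark. This split was not counted over the whole table, so nothing particular to the members is read from it. A forskolin level lower by more than 1.5 times was thus found in 5 of the 22, against 55.5% of the table genes at such a mean. Without a minimum on the mean it was found in 15 of 38, against 54.6%. It was higher by more than 1.5 times in 4 members, all among the 22, against 7.14% of the table and 5.59% at such a mean. The DMSO level was higher by more than 1.5 times in 10 of 38 (28.2% of the table) and lower in 5 (15.9% of the table). Among the 22 it was higher by that much in 6, near the 24.5% of table genes at such a mean.

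**Figure D3:**
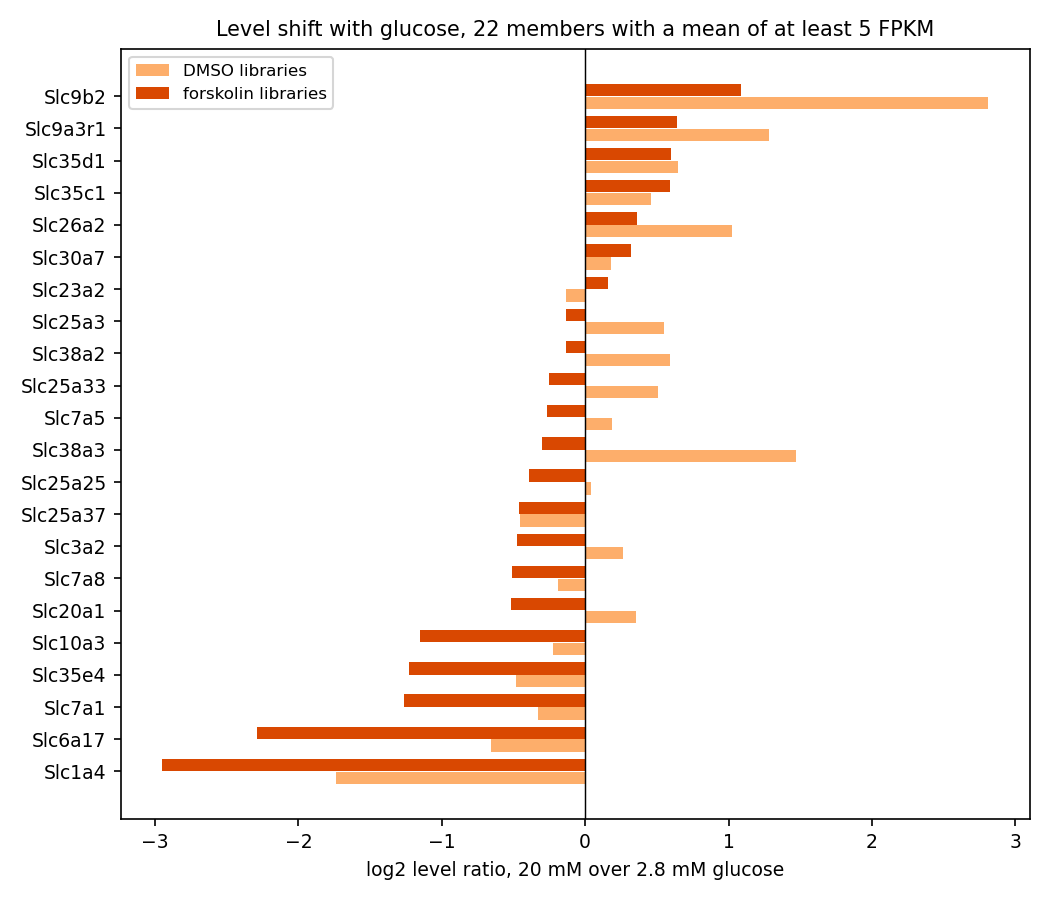
Log2 ratio of the level at 20 mM over that at 2.8 mM glucose in DMSO (light bars) and in forskolin (dark bars) for the 22 members with a mean of at least 5 FPKM, ordered by the forskolin ratio. Slc1a4 and Slc6a17 stand at the low end in forskolin (-2.95 and -2.29), and Slc9b2 at the high end in both treatments (2.81 in DMSO and 1.08 in forskolin).

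Low values limit 10 glucose-table members with a mean below 1 FPKM. For 7 of them the 4 values matched whole reads, of at most 9 in any library. Slc23a1, a further vitamin C carrier, fitted 1 and 7 reads at 2.8 mM and 5 and 3 reads at 20 mM. Slc26a5, the motor protein of cochlear hair cells, fitted 5, 9, 1 and 1 reads in the same order, and Slc25a21, the mitochondrial oxoadipate carrier, fitted 2, 4, 1 and 2 reads. Slc7a7 (1, 2, 3 and 3 reads), Slc9a3 (2, 4, 2 and 3 reads) and Slc27a5 (2, 4, 1 and 1 reads) were no deeper. Slc27a5 activates bile acids, and Slc9a3 is a sodium/proton exchanger of epithelia. At so few reads, differences in these genes could not be detected. Slc27a2, which activates long-chain fatty acids, was listed at 0 in DMSO at 20 mM and fitted at most 6 reads elsewhere. Slc25a47, a liver mitochondrial carrier, was at 0.159 and 0.428 FPKM in low glucose and at 0.607 FPKM in high-glucose DMSO, and was listed at 0 in high-glucose forskolin. No fold was formed for either. Slc16a3, a lactate exporter, was at 0.299 and 0.956 FPKM in low glucose, against 0.367 and 0.497 FPKM in high glucose. This gene, Slc38a5 and Slc25a47 did not match whole reads.

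The A-CREB table addressed whether carriers still respond to forskolin when CREB is blocked. Its 16 members were 5 amino acid carriers, 3 of vesicular families, 2 mitochondrial, 2 monocarboxylate, and 1 each of ion, nucleoside and sugar carriers, with Slc9a3r1 as the last. None of the 6 members with a mean of at least 5 FPKM (45.2% of the table) reached 2-fold with A-CREB, against 24.6% of the 256 table genes at such a mean, and their folds lay between 1.26 and 1.76. Members at 2-fold or more without virus numbered 13 of 16 (80.4% of the table), these 6 among them, as the listing requires. Among all 16 members, 3 reached 2-fold with A-CREB (19.1% of the table), among them Slc17a3, which rests on a few reads, and Slc5a11, listed at 0 in A-CREB DMSO and counted through the pseudocount. A fold below that without virus was seen in 13 of 16 (92.2% of the table), including 11 past 1.5 times (79.0%), and a fold above it in 3 (7.77%), including 2 past 1.5 times (3.18%), both through a listed 0. Forskolin was at or above DMSO with A-CREB in 12 (70.0%), and 3 were listed at 0 in a library (7.77%). The median log2 fold was 1.20 without virus and 0.39 with A-CREB, and the median change was -0.77, against -1.20 over all 566 genes.

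Slc26a2 and Slc25a25 had the lowest changes of the 6. Slc26a2 had 4.27 FPKM in DMSO and 34.8 FPKM under forskolin in virus-free cells, against 3.28 and 4.48 FPKM in A-CREB cells. Its forskolin level with A-CREB was close to the DMSO level without virus, and its folds were 7.98 and 1.35. Slc25a25 was at 26.7 and 121 FPKM in virus-free cells, against 36.6 and 46.3 FPKM in A-CREB cells (4.54-fold, then 1.26-fold). Among amino acid carriers, Slc1a4 was at 53.7 and 149 FPKM in virus-free cells, against 63.4 and 80.3 FPKM in A-CREB cells (2.78-fold, then 1.27-fold). Slc7a5 was at 221 and 445 FPKM in virus-free cells, against 185 and 235 FPKM in A-CREB cells (2.01-fold, then 1.27-fold). Slc7a1 was at 134 and 274 FPKM in virus-free cells, against 134 and 216 FPKM in A-CREB cells (2.04-fold, then 1.61-fold). The reference folds of Slc7a5 and Slc7a1 lie just above the listing threshold. Slc9a3r1 was at 69.3 and 185 FPKM in virus-free cells, against 30.1 and 52.9 FPKM in A-CREB cells, lower with A-CREB in both treatments.

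**Figure D4:**
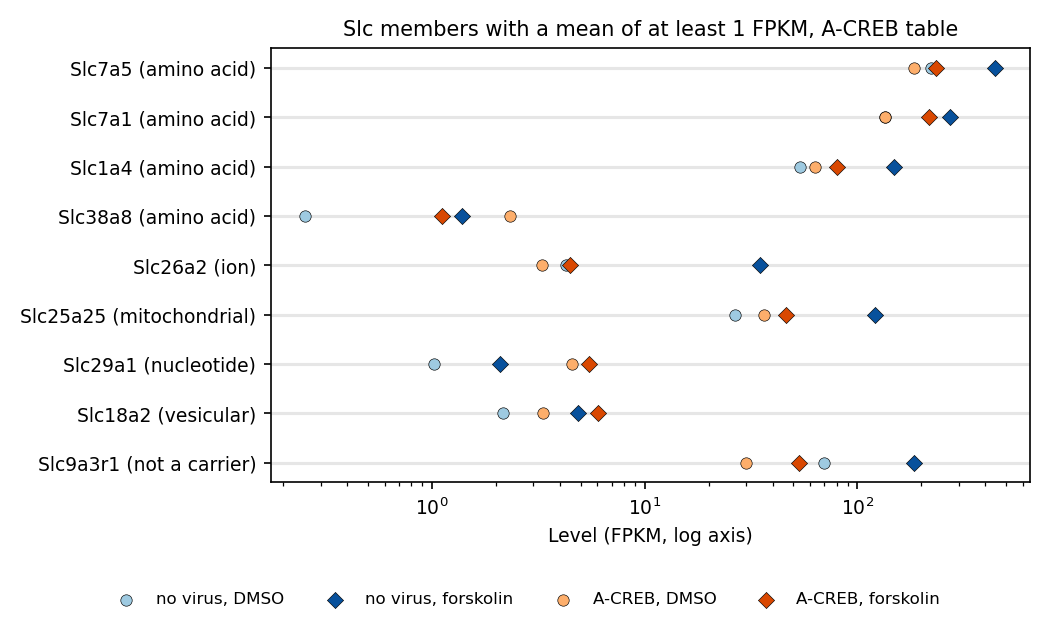
Levels of the 9 A-CREB-table members with a mean of at least 1 FPKM in each of the 4 libraries (log axis, FPKM), with circles for DMSO, diamonds for forskolin, blue for no virus and orange for A-CREB. The forskolin level with A-CREB lies far to the left of that without virus for Slc26a2 (4.48 and 34.8 FPKM) and to its right for Slc18a2 (6.02 and 4.89 FPKM) and Slc29a1 (5.49 and 2.09 FPKM).

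In all 5 of these 6 members whose fold was lower by more than 1.5 times (82.8% of table genes at such a mean), the forskolin level was lower by that much (5 of the 6, against 74.2%) and the DMSO level was not higher by that much. A DMSO level higher by that much was found in 0 of the 6, against 21.9% of table genes at such a mean. Over the 16 members, the forskolin level was lower by more than 1.5 times in 10 (61.0% of the table), and the DMSO level was higher by that much in 5 (38.5% of the table) and lower in 3 (17.3%). A forskolin level higher by that much was seen in 1, Slc29a1 (9.01%). Slc29a1, an equilibrative carrier of nucleosides and the member with the highest forskolin ratio, was at 1.02 and 2.09 FPKM in virus-free cells, against 4.56 and 5.49 FPKM in A-CREB cells. Its DMSO level was 4.17-fold higher with A-CREB and its folds were 1.95 and 1.20. Slc18a2, whose window holds the full element, was at 2.16 and 4.89 FPKM in virus-free cells, against 3.33 and 6.02 FPKM in A-CREB cells (2.21-fold, then 1.78-fold). Slc38a8, an amino acid carrier of the Slc38 family, was at 0.254 and 1.39 FPKM in virus-free cells, against 2.32 and 1.12 FPKM in A-CREB cells, with forskolin below DMSO in the latter.

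All 7 A-CREB-table members with a mean below 1 FPKM matched whole reads, of at most 8 in any library. Slc18a1, the other vesicular monoamine carrier, fitted 2 and 5 reads without virus and 8 and 3 reads with A-CREB. Slc17a3, an organic anion carrier, fitted 1, 3, 1 and 6 reads in the same order. The inositol carrier gene Slc5a11 fitted 1, 2, 0 and 2 reads. Slc25a35 was listed at 0 in A-CREB forskolin, and Slc7a15 and the creatine carrier gene Slc16a12 had at most 3 reads in any library. Differences in these genes could not be detected at this depth either.

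The 7 members in both tables were Slc18a2, Slc1a4, Slc25a25, Slc26a2, Slc7a1, Slc7a5 and Slc9a3r1, which is 18.4% of the glucose-table members and 43.8% of the A-CREB-table members. Over all genes 324 were in both, which is 24.1% of the 1344 and 57.2% of the 566. The tables share no library, and levels were not compared across them. In each of the 7 the fold was lower in the second condition of both tables, as in 91.2% of all glucose-table and 92.2% of all A-CREB-table genes. The changes with 20 mM glucose and with A-CREB were -0.67 and -2.56 for Slc26a2, -0.43 and -1.84 for Slc25a25, and -1.21 and -1.13 for Slc1a4. They were -0.94 and -0.34 for Slc7a1, -0.45 and -0.66 for Slc7a5, -0.64 and -0.60 for Slc9a3r1, and -0.305 and -0.308 for Slc18a2.

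Other membrane transport genes were read from a list of pumps, ABC transporters, chloride carriers and organic anion carriers. The glucose table lists 9, and each was induced less in high glucose, 6 past the 1.5-fold mark, with 3 at 2-fold or more and a median change of -0.69. The table's own shares are 91.2%, 65.6% and 37.2%, near these. Atp2a2, the calcium pump of the endoplasmic reticulum, had folds of 2.73 and 2.00, and Clcn5, an endosomal chloride/proton exchanger, had 4.24 and 2.63. In the A-CREB table Abcg8, a sterol exporter subunit, was below 1 FPKM in every library and had folds of 3.96 and 1.23. Of 20 amino acid response genes, which ATF4 drives together with several amino acid carriers, 7 were listed in the glucose table. Of these, 6 had a lower fold at 20 mM (91.2% of the table), 1 by more than 1.5 times (65.6% of the table; Ddit3, 4.34 and 1.43), and 1 a higher fold (Chac1, 2.90 and 3.98), with a median change of -0.22. Atf4 itself was at 236 and 574 FPKM in low glucose, against 138 and 257 FPKM in high glucose. The A-CREB table lists Cebpb and Ddit3, with changes of -0.42 and -0.16.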

How the data were processed

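RNA of 8 INS-1 libraries, 1 per group, was sequenced after mRNA isolation and NEBNext Ultra preparation, per the labels' protocols. The submitters' processing notes name TopHat2, Cuffdiff and the build rn5. Versions, annotation, strand use and library scaling are not given in the sources used here, and any error in one library's scaling moves all ratios formed with it. The deposited values are FPKM, in 2 tables that the authors cut to genes over 2-fold in forskolin over DMSO in the reference condition (the values bear this out). Columns were matched to libraries by title.

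From these, log2 ratios of FPKM + 0.1 were formed, with no fold of a single gene where a library was at 0. Level shifts were counted past 1.5-fold. Members and lists were chosen with earlier results of these data known. Members are counted in full, and 1 low member is not reported by name here. By rule, values are given for a mean of at least 5 FPKM, for members of both tables, and for a change of at least 4-fold or upward. Named A-CREB-table members below 1 FPKM are instead given by fitted reads or a listed 0, also where the rule covers them. The other members above 1 FPKM, and Slc38a5 and Slc16a3 below it, were given in full, which goes beyond that rule. No test was run, since groups of 1 have no spread. Whole reads are the smallest numbers within 0.07 reads of all 4 values given depth steps between libraries that were taken from genes under 1 FPKM. A step and its double explain the same ratios, and smaller whole numbers were given more weight, so read numbers are estimates. All 47 members matched a RefSeq gene (Slc9a3r1 by synonym), and 35 had promoter windows. The functions were tested on simulated data. Alternatives were other pseudocounts, a minimum mean, genes at 0 left out and other thresholds. Calculations used Python 3.11.15, numpy 2.4.6, pandas 2.3.3 and matplotlib 3.10.9.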

Additional observations from a re-analysis of the deposited data

Results flagged for a closer look

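In 5 members with no library at 0, forskolin was above DMSO in the reference condition and below it in the second. This difference in direction was not tested, since each group had 1 library. With A-CREB, forskolin was at or above DMSO in 12 of all 16 members, beside 70.0% of the table. At 20 mM this held for 35 of all 38, beside 87.1%. These shares are near those of the tables, so nothing particular to the members is read from the 5. In the A-CREB table the log2 fold with A-CREB was -0.99 for Slc38a8 (2.07 without virus), -1.45 for Slc18a1 (1.18) and -0.16 for Slc7a15 (1.19). In the glucose table the log2 fold at 20 mM was -0.10 for Slc23a1 (1.66 at 2.8 mM) and -0.011 for Slc38a5 (1.78). Slc18a1, Slc7a15 and Slc23a1 rest on at most 8 reads in any library. Slc38a5 was at 0.114 and 0.112 FPKM at 20 mM, so forskolin and DMSO hardly differed there, and both values were near the pseudocount of 0.1. Slc38a8 was at 0.254 FPKM in DMSO without virus, and its change of -3.06 became -1.58 with a pseudocount of 1.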

How the results depend on the processing

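No paired analysis was possible because each group had 1 library. With a pseudocount of 1 the median change was -0.46 for glucose and -0.50 for A-CREB. With a pseudocount of 0.01, a mean of at least 1 FPKM or genes at 0 left out it ranged from -0.73 to -0.70 and from -0.89 to -0.71. Of 68 single-member changes under other pseudocounts none changed sign, and 2 moved by more than 1.5-fold (as a ratio of folds, not of log2 values), both with a pseudocount of 1: Slc38a8 to -1.58 and Slc18a1 to -1.05. In the glucose table, 7 of 38 members reached 3-fold at 20 mM. A DMSO level lower by 1.5 times at 20 mM was found in 8 members with a pseudocount of 0.01. Among the 28 members whose mean reached 1 FPKM, 3 had such a DMSO level, against 15.5% of table genes at that mean. A lower forskolin level was found in 8 members with a pseudocount of 1. Among the same 28 members there were 7 with a lower forskolin level, against 53.8% of table genes at that mean. In the A-CREB table, members at 2-fold with A-CREB numbered 0 of 16 with a pseudocount of 1. At a mean of at least 1 FPKM they numbered 0 of 9, against 21.9% of table genes. They numbered 1 of 13 with genes at 0 left out, and 6 of 16 passed 1.5-fold. A higher DMSO level was found in 3 with a pseudocount of 1, at a mean of at least 1 FPKM, or at a 2-fold mark. At that mean this was 3 of 9, near the 33.4% of table genes. A lower DMSO level was found in 1 with a pseudocount of 1, at that mean (1 of 9, against 16.8%), or with genes at 0 left out. A lower forskolin level was found in 6 with a pseudocount of 1, in 5 of 9 at that mean (against 65.1%) and in 6 at a 2-fold mark. Table shares were not formed for other pseudocounts, other marks or genes at 0 left out. The remaining alternatives kept these counts and medians within 1.5 times. Few reads limit the members below 1 FPKM.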
